A study of Homo sapiens with 6 samples.

Results

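MLT1 elements were followed in RNA from cultures of HaCaT, a spontaneously immortalised line of human skin keratinocytes, the cells that build the outer skin layer. The members were every deposited repeat copy whose repeat name begins with MLT1, which gave 245856 of 771683 repeat copies (31.9%) and 61 of 595 repeat names. Of these names, 30 denote long terminal repeats (LTRs) and held 234524 copies. The other 31, ending in -int, denote the internal part and held 11332 copies. One group of 3 libraries came from cells exposed to ultraviolet B (UVB), with 50 mJ in the labels and no area stated, and the other group of 3 from control cells. Total RNA was harvested with Trizol from 60 mm dishes, and the labels give 24 h of culture after irradiation. The labels carry the same treatment text for all 6 libraries and name no sham exposure, so the groups rest on the sample titles. Nothing in the labels says that the 3 libraries of a group came from independent cultures, so p-values measure the spread between these libraries, which may be technical.

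MLT1 elements belong to the mammalian apparent LTR retrotransposons (MaLR), a branch related to the ERVL endogenous retroviruses. They copied themselves through RNA with enzymes supplied by other elements and stopped moving long ago, before the main groups of placental mammals parted. A full element has an LTR at each end and an internal part between them. Recombination between both LTRs leaves a solitary LTR, the commonest remnant. LTRs carry the promoter and the polyadenylation signal, and RNA over an old copy can also come from a gene or a long transcript that runs through it. THE1 and MST elements are the younger MaLR relatives of MLT1. The letter after MLT1 names a subfamily, and the order of letters runs broadly from younger to older elements.

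The deposited tables name each copy by a number pair and give its length, and no genome position. The sequence and the gene context of the copies are therefore not given here. The second number of the pair counts the repeat copies in the table from first to last. The first number is shared by some of them. Among MLT1 copies alone, each of the 186893 first numbers carried 1 base name, counting an LTR and its -int as the same base name. Over all repeats, 91.3% of neighbouring copies with the same first number shared a base name, against 3.88% of other neighbours. Of 6953 first numbers with an -int copy, 5783 (83.2%) also had an LTR copy. A first number is called an insertion below, which is a reading of these numbers and not a statement of the authors.

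The values deposited are FPKM, read fragments scaled by the length of the feature and by the assigned reads of the library. Read numbers were recovered from them. Whether a recovered unit is a read or a fragment is not stated, and it is called a read here. Assigned reads ranged from 72517243 to 88484020 in the UVB libraries and from 66272443 to 81303733 in the controls. Repeat copies took 0.750%, 0.791% and 0.771% of them in UVB replicates 1 to 3, against 0.829%, 0.959% and 0.787% in control replicates 1 to 3. Control replicate 2 stood apart with the highest share, and sums, ratios and named repeat names that move without it are given without it as well. The keratinocyte markers KRT5, KRT14, TP63, KRT17 and CDH1 summed to 145 to 216 FPKM in UVB libraries and 283 to 425 FPKM in controls, while KRT14 alone did not pass 1.86 FPKM in any library. KRT5 fell (limma log2 fold change -1.24, adjusted p = 0.0136), and KRT14 rose at its low level (limma log2 fold change 0.43, adjusted p = 0.0163). TP63, KRT17 and CDH1 did not pass the test. Markers of fibroblasts (4 genes) summed to 1.67 to 1.91 FPKM in UVB libraries and 0.652 to 0.896 FPKM in controls, nearly all from COL1A1. Of the leukocyte markers, ITGAM gave 0.141 to 0.175 FPKM in UVB libraries and 0.0583 to 0.0849 FPKM in controls, PTPRC did not pass 0.0132 FPKM in any library, and CD3E was at 0 throughout. Those of endothelium (3 genes) summed to 5.91 to 8.96 FPKM in UVB libraries and 4.26 to 5.21 FPKM in controls, nearly all from CDH5. Those of melanocytes (4 genes) summed to 0.808 to 1.05 FPKM in UVB libraries and 0.733 to 1.15 FPKM in controls, with TYR at 0 throughout. The part of these markers in the results below was not tested. In bulk RNA, a change in the kinds of cells and a change of RNA per cell cannot be told apart.

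Most MLT1 copies had no read in these libraries. Of the 245856 copies, 210278 (85.5%) had no read in any of the 6 libraries, against 85.8% of all other repeat copies. The share without a read was 85.4% among LTR copies and 87.8% among -int copies. Between 13611 and 15736 copies had at least 1 read in a UVB library, and between 15232 and 17359 in a control library. Only 4353 copies (1.77%) had a read in all 6 libraries. With 112370 to 144192 MLT1 reads in a UVB library and 117206 to 131777 in a control library, a copy with 0 reads is not detectable at this depth rather than absent. Counts and intervals cover counting error only, since PCR copies are not independent molecules.

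MLT1 RNA was concentrated in few copies. A set of 1797 copies (0.731% of all) held 50% of the summed MLT1 signal, measured in RPM, the FPKM of a copy multiplied by its length in kilobases. The most-read copy, an MLT1D LTR, held 2.06% of it, and the 10 most-read held 5.27%. Copies were short, with a median length of 265 bases for LTR copies and 296 bases for -int copies and a range from 11 to 1873 bases. Per megabase of annotated copy, LTR copies gave 24.8 RPM and -int copies 19.7 RPM over the 6 libraries, against 16.5 RPM for THE1, 23.9 RPM for MST and 29.9 RPM for all repeats other than MLT1.

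The first comparison asked whether the summed RNA of MLT1 copies differed after UVB. All MLT1 copies together gave 1550, 1630 and 1593 RPM in UVB libraries, against 1689, 1988 and 1574 RPM in controls. The groups overlapped, because control replicate 3 lay below UVB replicates 2 and 3, and control replicate 2 was the highest of all. The means were 1591 ± 40.1 RPM after UVB and 1751 ± 214 RPM in controls (SD, n = 3 each). The log2 difference was -0.13 (2-sided exact permutation test, p = 0.3; 3 against 3 libraries cannot go below 0.1), and -0.036 without control replicate 2. Scaled to the reads on repeats instead of all assigned reads, it was 0.018 (exact permutation p = 0.4). MLT1 copies held 20.7%, 20.6% and 20.7% of repeat reads in UVB libraries, against 20.4%, 20.7% and 20.0% in controls.

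LTR and internal copies differed from control by like amounts. LTR copies summed to 1460, 1541 and 1503 RPM in UVB libraries, against 1598, 1878 and 1480 RPM in controls (log2 difference -0.13, exact permutation p = 0.3), and the groups overlapped. The difference was -0.035 without control replicate 2. Internal copies summed to 90.0, 88.6 and 90.5 RPM in UVB libraries, against 91.2, 110.5 and 94.0 RPM in controls. All UVB values of the internal copies lay below all control values, by a margin of less than 1 RPM between UVB replicate 3 and control replicate 1. Their log2 difference was -0.13 (exact permutation p = 0.1, the smallest possible), -0.046 without control replicate 2 and 0.019 when scaled to repeat reads. All repeats other than MLT1 summed to 5949, 6285 and 6121 RPM in UVB libraries, against 6596, 7597 and 6299 RPM in controls. Those groups did not overlap either (log2 difference -0.15, exact permutation p = 0.1, and -0.076 without control replicate 2). The lack of overlap was thus not particular to MLT1 internal copies.

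**Figure D1:**
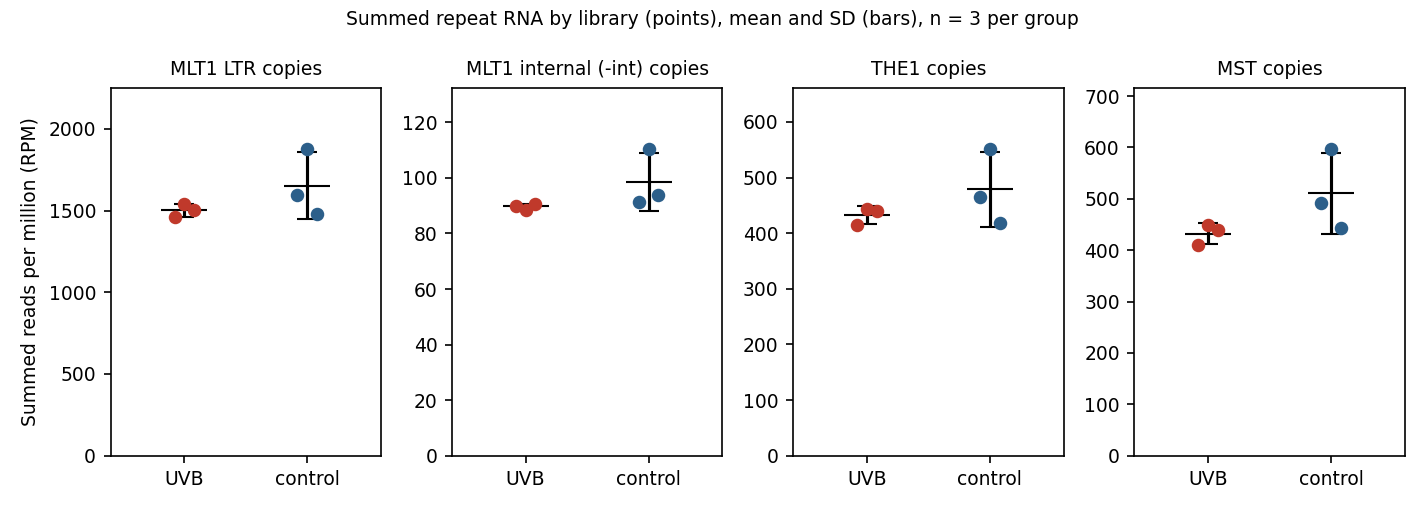
Summed RPM of MLT1 LTR copies, MLT1 internal copies and the related THE1 and MST copies (vertical axes, each from 0) in 3 UVB and 3 control libraries, as points, with the mean and SD as bars. The UVB libraries lie close together in every panel, and 1 control library, replicate 2, is the highest of its group in all 4.

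The ratio of LTR to internal RNA tested the difference between both changes directly. It was 16.2, 17.4 and 16.6 in UVB libraries, against 17.5, 17.0 and 15.7 in controls. The groups overlapped fully, and the log2 difference was -0.00060 (exact permutation p = 1), with a sign that changed when single libraries or the most-read copy were left out. Among insertions that hold both kinds, with 9674 LTR and 9767 -int copies, the ratio was 0.739, 0.759 and 0.719 in UVB libraries and 0.803, 0.746 and 0.727 in controls. That difference was -0.037 on the log2 scale (exact permutation p = 0.6), and -0.048 without control replicate 2. In these insertions LTR copies gave 24.3 RPM and -int copies 20.1 RPM per megabase, so RNA lay over internal parts at a level near that of their LTRs.

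MLT1 was set beside its younger relatives. THE1 copies summed to 433 ± 16.3 RPM after UVB and 479 ± 67.4 RPM in controls (SD, n = 3 each), and the ratio of MLT1 to THE1 differed by 0.0048 on the log2 scale (exact permutation p = 0.9). MST copies summed to 410, 448 and 438 RPM in UVB libraries, against 493, 597 and 443 RPM in controls, with overlap. The ratio of MLT1 to MST was 3.78, 3.63 and 3.63 in UVB libraries and 3.43, 3.33 and 3.55 in controls. All UVB ratios lay above all control ratios, with a log2 difference of 0.10 (exact permutation p = 0.1, the smallest possible). The ratio of MLT1 to all other repeats was 0.260 in UVB libraries on average and 0.256 in controls (log2 difference 0.02, exact permutation p = 0.4). In all 5 ratios were compared, and with 3 against 3 libraries none of their p-values could go below 0.1. Without control replicate 2 the log2 difference was -0.03 for the THE1 sum, against -0.14 with all libraries, and -0.11 for the MST sum, against -0.23. Without it the differences of the ratios of MLT1 were -0.0069 to THE1, 0.077 to MST and 0.040 to all other repeats.

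Grouped by letter, from MLT1A to MLT1O, LTR copies were mostly shorter in the later letters and differed in level. The median copy length was 337 bases for letter A, 386 bases for D, 201 bases for J and 130 bases for N. The level per megabase ran from 16.2 RPM for N to 33.1 RPM for M, with 20.6 RPM for A, 31.9 RPM for C and 31.5 RPM for D, and so did not follow the order of the letters. The share of copies without a read ran from 82.5% for F to 88.0% for I. After UVB the log2 difference of the sums lay between -0.25 for M and 0.0055 for C, with 14 of 15 letters below 0 on this scale of assigned reads. The groups did not overlap for F, L and M, where all UVB values lay below all control values (exact permutation p = 0.1 each, the smallest possible). Without control replicate 2 the range was -0.13 for M to 0.11 for C, with 13 letters below 0 and C and K above. As a background, 82.8% of all repeat names tested with limma lay below 0. The sum of all repeats other than MLT1 was also lower after UVB without overlap (log2 difference -0.15, exact permutation p = 0.1). MLT1L summed to 48.0, 49.2 and 49.0 RPM in UVB libraries, against 54.7, 64.9 and 52.2 RPM in controls. Letter C (MLT1C and MLT1C2) summed to 218, 234 and 225 RPM in UVB libraries, against 209, 261 and 207 RPM in controls. Its control values enclosed those after UVB. Letter C holds the MLT1C2 copy Repeat_3891777.629775, with 0.0865 RPM in control replicate 1 and 15.5 to 20.9 RPM in the other libraries. The difference of C without that copy was not tested.

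Of the 61 repeat names, 51 had a mean of at least 1 RPM and were tested among 499 repeat names with limma on log2(RPM + 0.1). No MLT1 name passed an adjusted p of 0.05 with limma, against a background of 1.6% of all names tested, each of which fell. At an unadjusted p under 0.05 with limma, 7 of the 51 names (13.7%) stood, all lower after UVB, beside 86 of all 499 names (17.2%), 83 of them lower. The smallest adjusted p of an MLT1 name was 0.144. The count tests on recovered reads gave 0 calls with edgeR (4 at an unadjusted p under 0.05, all higher, beside 55 of all 499 names, 30 of them higher), against a background of 2% (1.4% higher, 0.601% lower). DESeq2 gave 1 call, against a background of 2.61% (1.8% higher, 0.802% lower). The 51 names had a median log2 fold change of -0.17, beside -0.18 for all 499 names, and ranged from -0.54 to 0.10. Below 0 lay 42 of them (82.4%), 27 of 30 LTR names and 15 of 21 -int names, beside 413 of all 499 names (82.8%). With edgeR and its TMM scaling the medians were 0.015 for MLT1 and -0.0046 for all names, and 20 of the 51 MLT1 names differed in sign between limma and edgeR while 31 did not.

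**Figure D2:**
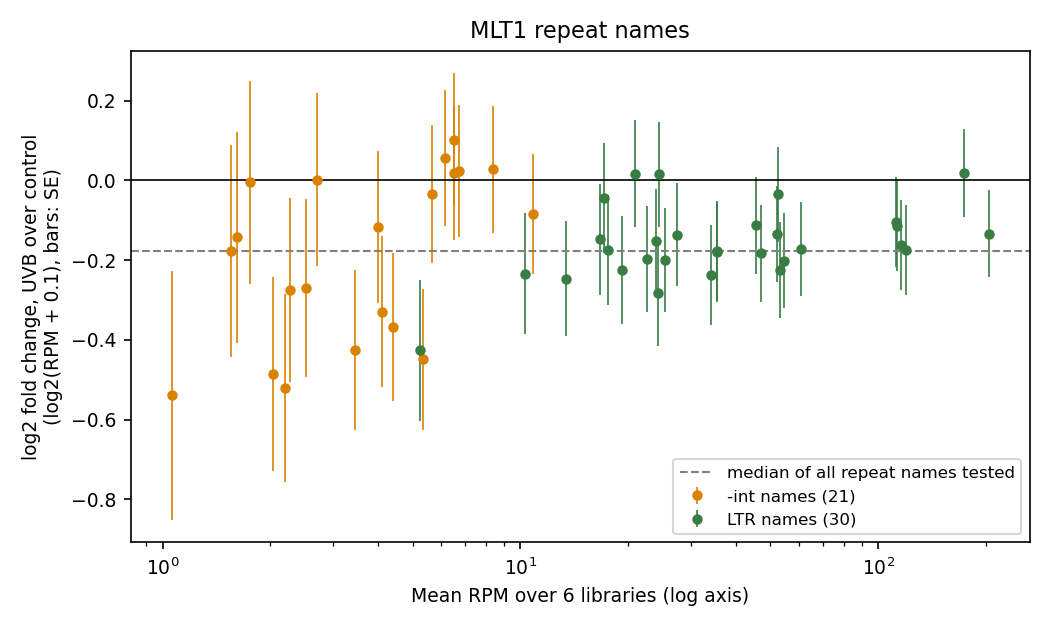
Log2 fold change of UVB over control (vertical axis, on log2(RPM + 0.1), bars: SE) against mean RPM (horizontal log axis) for 21 tested -int names and 30 tested LTR names. Most names lie near the dashed line, the median of all 499 repeat names at -0.18, and the 6 points below -0.42 all have a mean under 6 RPM.

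The most abundant LTR names were MLT1D, MLT1C2, MLT1A0, MLT1B and MLT1J. MLT1D gave 187.03, 200.01 and 194.98 RPM in UVB libraries, against 201.35, 243.66 and 196.31 RPM in controls. Every UVB value but that of replicate 2 lay below the lowest control value, and the log2 fold change was -0.13 ± 0.11 (SE). MLT1C2 gave 166.7, 181.2 and 173.9 RPM in UVB libraries, against 157.3, 198.6 and 161.8 RPM in controls. Its UVB values lay within the control range, with a log2 fold change of 0.02 by limma. DESeq2 alone called it higher (log2 fold change 0.19, adjusted p = 0.0299). Among its copies, Repeat_3891777.629775 gave 20.9, 20.5 and 20.3 RPM in UVB libraries, against 0.0865, 15.5 and 18.1 RPM in controls. The name was not tested without that copy. Without control replicate 1 the limma log2 fold change of MLT1C2 was -0.044. The log2 fold changes of MLT1A0, MLT1B and MLT1J were -0.17, -0.16 and -0.11 by limma, and those of these 3 names and MLT1D lay between 0.00039 and 0.063 with edgeR or DESeq2. Without control replicate 2 the limma log2 fold changes were -0.036 for MLT1D, 0.12 for MLT1C2, -0.061 for MLT1A0, -0.075 for MLT1B and -0.028 for MLT1J. Per megabase, MLT1C2 was the highest of the 5 at 34.2 RPM and MLT1A0 the lowest at 20.2 RPM. The most abundant -int names were MLT1B-int with a mean of 10.8 RPM, MLT1C2-int with 8.37 RPM and MLT1A0-int with 6.74 RPM, and their log2 fold changes were -0.085, 0.027 and 0.024. MLT1B-int also had the highest level of these per megabase, 50.9 RPM.

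Single copies could be tested only where reads sufficed. A mean of at least 0.5 FPKM was reached by 2466 MLT1 copies (1.00% of all), 2358 LTR and 108 -int copies, among 7745 repeat copies tested with limma on log2(FPKM + 1). A copy read in 1 group only could pass this filter through that group, so counts over the tested copies describe those alone. Of the 2466, 3 rose and 2 fell at an adjusted p under 0.05 with limma (0.203%), against a background of 0.284% of all repeat copies tested (0.155% higher and 0.129% lower). No -int copy was among them, with 8 of 108 (7.41%) at an unadjusted p under 0.05 by limma, beside 835 of all 7745 copies (10.8%). edgeR called 2 higher (background 0.155%) and 1 lower (background 0.0904%), or 0.122% against 0.245% in either direction. DESeq2 called 8 higher (background 0.594%) and 7 lower (background 0.413%), or 0.608% against 1.01%. The median log2 fold change was -0.03 over the MLT1 copies tested and -0.04 over all repeat copies tested. All UVB values lay above all control values for 161 MLT1 copies (6.53%, background 6.71%) and below for 207 (8.39%, background 9.83%).

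**Figure D3:**
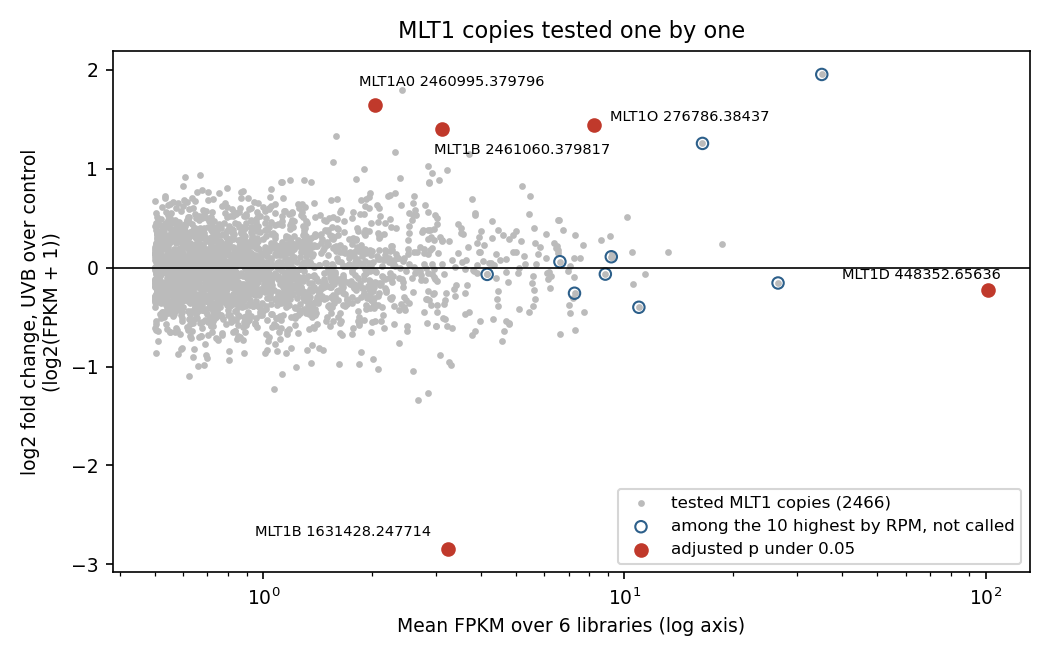
Log2 fold change of UVB over control (vertical axis, on log2(FPKM + 1)) against mean FPKM (horizontal log axis) for the 2466 MLT1 copies tested. Red points are the 5 copies with a limma adjusted p under 0.05 and open circles are the other 9 of the 10 most-read copies, 2 of which lie above 1 without being called.

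The copy that fell furthest was an MLT1B LTR of 384 bases, Repeat_1631428.247714. It had 1, 1 and 1 reads in UVB libraries, against 165, 138 and 243 reads in controls, or 0.0138, 0.0113 and 0.0126 RPM against 2.38, 2.08 and 2.99 RPM. It was near 0 after UVB and well read in every control library, with no overlap. Per assigned read, the level in UVB libraries was 0.00496 of that in controls, with a 95% exact interval of 0.00102 to 0.0146 for counting error. The change was -2.84 ± 0.213 on the log2 scale (SE; limma adjusted p = 8.8e-05), and edgeR gave an adjusted p of 6.1e-05. It kept the call under every alternative tried. No repeat copy within 8 places of it in the table had enough reads to be tested.

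The copy that rose most among those called was an MLT1A0 LTR of 349 bases, Repeat_2460995.379796. It had 81, 122 and 101 reads in UVB libraries, against 20, 10 and 6 reads in controls, or 1.12, 1.38 and 1.27 RPM against 0.288, 0.151 and 0.0738 RPM. The lowest UVB value was well above the highest control value. This came to 1.64 ± 0.226 on the log2 scale (SE; limma adjusted p = 0.00957; edgeR adjusted p = 0.0324). Without UVB replicate 2 the limma adjusted p was 0.0603.

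A second riser, an MLT1B LTR of 385 bases, lay 21 places further on in the table, Repeat_2461060.379817. It had 145, 178 and 138 reads in UVB libraries, against 33, 41 and 30 reads in controls, or 2.00, 2.01 and 1.74 RPM against 0.476, 0.619 and 0.369 RPM. The UVB and control libraries did not overlap. This came to 1.41 ± 0.208 on the log2 scale (SE; limma adjusted p = 0.0137; edgeR adjusted p = 0.0171). The limma adjusted p was 0.0733 without UVB replicate 1, 0.0800 without UVB replicate 2, 0.0514 without control replicate 1 and 0.219 with no filter on low values.

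Both risers and the copies between them formed a stretch of 22 repeat copies in table order, 10 of them MLT1. Of these, 5 were tested, all MLT1, and all 5 lay above 0, with log2 fold changes from 0.43 to 1.64 and a median of 0.86. The 3 not called were an MLT1B copy with 8, 30 and 32 reads in UVB libraries against 4, 19 and 0 in controls, and a pair of MLT1A0 copies that share an insertion number. The shorter of that pair had 16, 17 and 21 reads in UVB libraries, against 4, 7 and 3 in controls, without overlap (limma adjusted p = 0.153). The stretch was described after its values were seen, and its ends are the called risers, which the count and median include. Copies above 0 were not limited to MLT1. Within 8 places before the stretch, tested THE1D, THE1B and THE1D copies had log2 fold changes of 0.62, 0.84 and 0.70. Within 8 places after it, MER21C had 0.83, THE1B 0.29, and MLT2C1 copies 0.19 and 0.43. None of these outside copies was called.

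The third riser, an MLT1O LTR copy of 21 bases, Repeat_276786.38437, was listed between copies of another element. It had 21, 25 and 17 reads in UVB libraries, against 5, 6 and 7 reads in controls. The groups were well apart, with a log2 fold change of 1.44 ± 0.180 (SE, limma adjusted p = 0.00437), but on these few reads edgeR gave an adjusted p of 0.326 and DESeq2 0.267. The copies around it share a single insertion number and are LTR7Y and HERVH-int, the LTR and internal part of HERVH, a primate endogenous retrovirus. All 9 copies from the first LTR7Y to the last were tested, the MLT1O included, and all lay above 0, 8 of them past the threshold, with log2 fold changes from 1.08 to 1.49. The longest, an HERVH-int copy of 3415 bases, had 1025, 1224 and 970 reads in UVB libraries, against 298, 270 and 342 reads in controls. The 21-base MLT1O thus changed by about as much as the HERVH copies on either side of it.

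**Figure D4:**
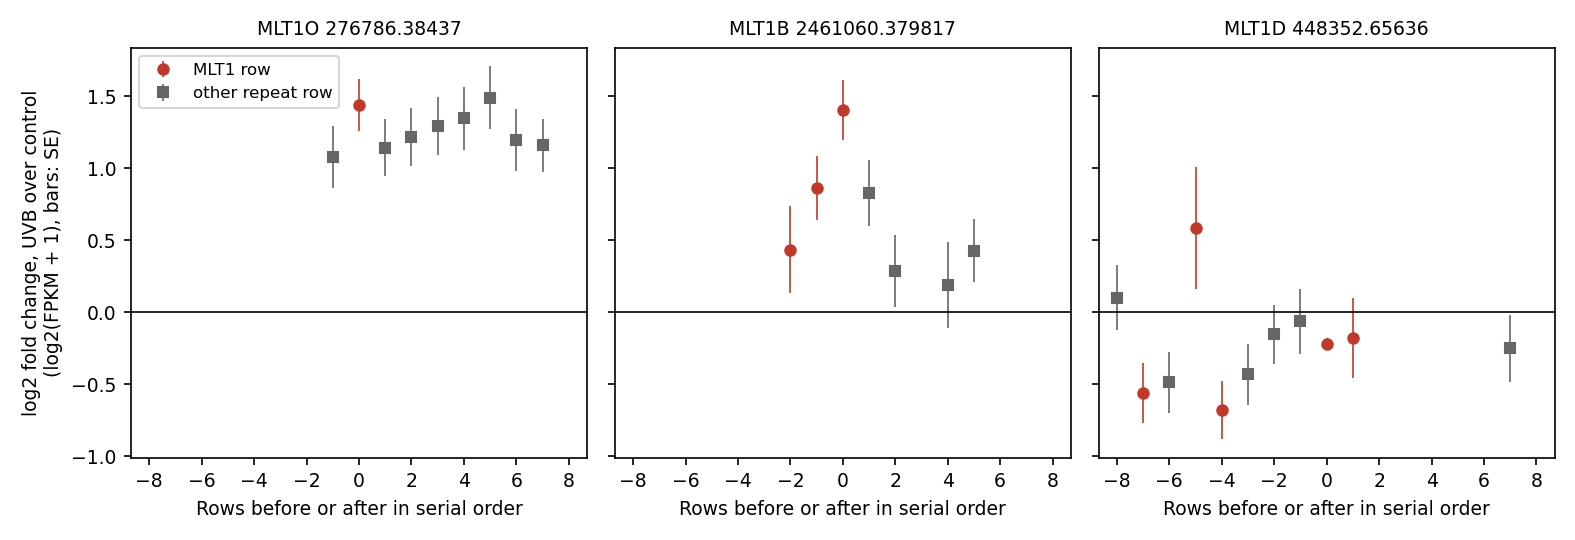
Log2 fold change of UVB over control (vertical axis, on log2(FPKM + 1), bars: SE) of the tested repeat copies listed within 8 places of 3 called MLT1 copies (horizontal axis, places in table order, not a genome distance). All 9 copies around the MLT1O lie between 1.08 and 1.49, those around the MLT1B copy lie above 0, and those around the MLT1D copy lie on both sides of 0.

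The other call was the most-read MLT1 copy, an MLT1D LTR of 339 bases, Repeat_448352.65636. It had 2289, 2804 and 2541 reads in UVB libraries, against 2542, 2499 and 3003 reads in controls. Per assigned read the groups separated, with 31.6, 31.7 and 32.0 RPM in UVB libraries against 36.6, 37.7 and 36.9 RPM in controls, or 31.8 ± 0.241 against 37.1 ± 0.551 RPM (SD, n = 3 each). The log2 fold change was small, -0.22 ± 0.0407 (SE), and the limma adjusted p was 0.0499. The call was lost when any of the 6 libraries was left out (limma adjusted p 0.115 to 0.266), with a pseudocount of 0.1 (limma, 0.0707), with a replicate block (limma, 0.1003), and with edgeR (0.660) and DESeq2 (0.903).

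The other 9 of the 10 most-read copies did not pass the test. An MLT1C2 copy of 452 bases, Repeat_3891777.629775, had 1518, 1812 and 1609 reads in UVB libraries, against 6, 1026 and 1475 reads in controls. An MLT1D copy of 466 bases, Repeat_1485233.228658, had 453, 864 and 791 reads in UVB libraries, against 1, 668 and 805 reads in controls. Both were nearly absent from control replicate 1 and well read in the other 5 libraries. Their log2 fold changes were 1.95 ± 0.957 and 1.26 ± 0.864 (SE) with limma adjusted p of 0.485 and 0.645, and without control replicate 1 they were 0.29 and -0.22. Another MLT1D copy of 339 bases, Repeat_446083.65163, had 616, 834 and 609 reads in UVB libraries, against 632, 676 and 751 in controls, with limma adjusted p = 0.639. The remaining 6 were copies of MLT1H, MLT1J (2 copies), MLT1K, MLT1F and MLT1G-int, with log2 fold changes from -0.40 to 0.11 and limma adjusted p from 0.351 to 0.927.

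**Figure D5:**
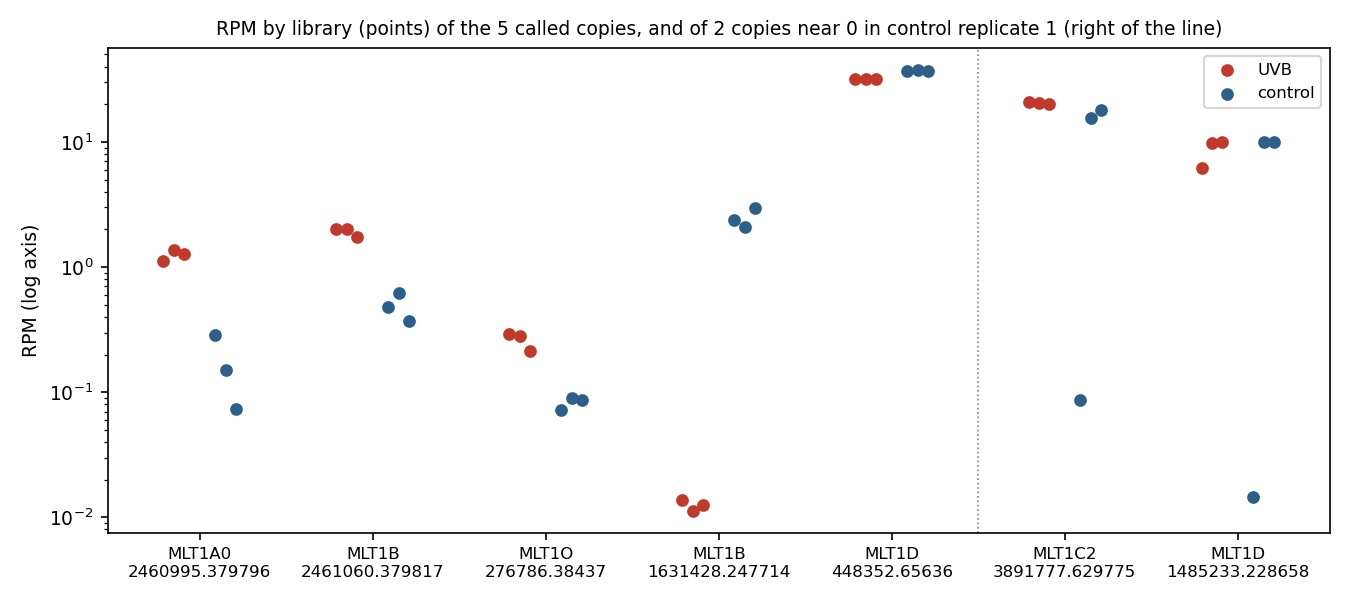
RPM (vertical log axis) of 7 MLT1 copies (horizontal axis) in each UVB and each control library, as points. The 5 called copies are left of the dotted line, with no overlap between groups, and the 2 copies right of it drop to 0.0865 and 0.0144 RPM in control replicate 1 only.

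Such single-library departures were counted over all copies. With a mean of at least 50 reads in the other libraries, 5 MLT1 copies had 1 library at or under 10% of the lowest other, among 60 such repeat copies. With at least 50 reads in 1 library and at least 10-fold above the next, there were 5 MLT1 copies among 18 repeat copies. An MLT1B-int copy of 1403 bases, Repeat_1032532.154976, had 1, 120 and 85 reads in UVB libraries, against 103, 121 and 120 in controls. An MLT1A0 copy of 355 bases, Repeat_3079682.489453, had 4, 4 and 368 reads in UVB libraries, against 3, 6 and 4 in controls. UVB replicate 1 was the low library in the MLT1B-int copy, and UVB replicate 3 the high one in the MLT1A0 copy. Both directions occurred within each group, and none of these 10 copies passed the limma test.

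Copies read in only one group were rare. At least 5 reads in all 3 UVB libraries and 0 in all controls were found for 14 MLT1 copies (0.0394% of the 35578 with a read, background 0.0535% of all repeat copies with a read). The reverse, reads in all 3 controls and 0 in all UVB libraries, was found for 22 (0.0618%, background 0.0971%). An MLT1H copy of 466 bases, Repeat_2739954.424211, had 16, 5 and 20 reads in UVB libraries and 0 in each control, at least 12.3-fold higher against a floor of 3 reads over the control group. An MLT1F copy of 519 bases, Repeat_4012097.650556, had 0 reads in each UVB library and 5, 14 and 25 in controls, at least 16.2-fold lower against the same floor over the UVB group. Of these 36 copies 1 was an -int copy, an MLT1C2-int read in controls only. Among all 245856 MLT1 copies, 11332 were -int copies, so few were to be met among 36.

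Copies listed next to each other in the table tended to move in the same direction. Among neighbouring tested pairs with at least 1 MLT1 copy, the log2 fold changes of 396 pairs that share an insertion number had a Pearson r of 0.50 and a Spearman rho of 0.46, and 68.7% had the same sign. For 1086 neighbouring pairs with different insertion numbers these were 0.41, 0.37 and 64.2%. The pairs share the same 6 libraries and are not independent, so these values describe the table and carry no p. No values of distant pairs or of pairs without an MLT1 copy are given beside them. Whether the likeness is particular to MLT1 was not tested.

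The authors' deposited table gives its own fold changes and adjusted p-values per copy. In the authors' deposited table an adjusted p under 0.05 was listed for 20 MLT1 copies (0.0562% of those with an adjusted p, background 0.142% of all repeat copies), 9 of them higher (background 0.0517%) and 11 lower (background 0.0907%) after UVB. Of the 20, 9 passed the filter on low values and 3 were also called by limma, namely the MLT1A0 and both MLT1B copies above. In 7 of the 20, all libraries of one group had 0 reads. An MLT1E1A copy of 441 bases, Repeat_855117.127050, had 226, 7 and 233 reads in UVB libraries, against 6, 6 and 7 in controls. UVB replicate 2 was at the control level, and the authors' deposited table gives a log2 fold change of 4.54 with an adjusted p of 0.0159 for it, against a limma adjusted p of 0.255. An MLT1K copy of 296 bases, Repeat_251911.34990, had 33, 26 and 27 reads in UVB libraries, against 97, 55 and 142 in controls. Its groups did not overlap, and it had -1.89 with an adjusted p of 0.00397 in the authors' deposited table and a limma adjusted p of 0.0650.

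The authors also deposited a count sheet of 74 repeat copies, all higher after UVB in the authors' deposited table, so its direction was fixed by its selection. It held 15 MLT1 copies (20.3%, where MLT1 makes up 31.9% of all repeat copies), 4 of them -int copies. Of the 15, 5 had an adjusted p under 0.05 in the authors' deposited table, beside 39 of all 74, and none of the 11 lower MLT1 copies was in the sheet. By limma, 9 of the 15 were tested and 2 were called, the MLT1A0 and MLT1B copies of the stretch described above. An MLT1C copy of 448 bases, Repeat_3762978.608302, had 163, 153 and 112 reads in UVB libraries, against 58, 61 and 48 in controls. The groups were clearly apart, though the limma adjusted p was 0.159. A pair of MLT1J copies listed 2 places apart had 60, 58 and 68 and 50, 64 and 51 reads in UVB libraries, against 27, 11 and 18 and 7, 20 and 13 in controls. An MLT1K and an MLT1H1 copy listed next to each other had 132, 162 and 186 and 85, 139 and 127 reads in UVB libraries, against 63, 37 and 96 and 47, 39 and 64 in controls. None of these 4 overlapped between groups, and none passed the limma test. Copies of this sheet were selected as higher after UVB, which favours a lack of overlap, so it adds no support here. Over all repeat copies tested, all UVB values lay above all control values for 6.71%. An MLT1H-int copy of 1319 bases had 138, 22 and 14 reads in UVB libraries, against 16, 9 and 10 in controls, so its sum rested on UVB replicate 1. The copies in this paragraph outside the test's calls were chosen after their values were seen.

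Genes known to keep endogenous retroviruses silent were examined as a list of 30, all of which were tested among 14921 genes with limma on log2(FPKM + 1). KRAB zinc-finger proteins recruit TRIM28 and the histone methyltransferase SETDB1 to such elements, the HUSH complex (MPHOSPH8, TASOR and PPHLN1, acting with MORC2) silences young insertions, and DNMT1 maintains DNA methylation. Of the 30, 7 rose (background 17% of genes) and 1 fell (background 11%), and 22 did not pass. The list's median log2 fold change was 0.083, beside 0.042 for all genes tested. MPHOSPH8 gave 11.4, 12.5 and 12.8 FPKM in UVB libraries, against 9.27, 8.44 and 7.97 FPKM in controls, with log2 fold change 0.47 (limma adjusted p = 0.00530). DNMT1 gave 34.4, 34.0 and 37.9 FPKM in UVB libraries, against 25.9, 27.6 and 24.9 FPKM in controls, with log2 fold change 0.43 (limma adjusted p = 0.00435). Neither overlapped between groups.

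MORC2 and SAFB, a scaffold attachment factor, rose by less, with log2 fold changes of 0.30 and 0.28 (limma adjusted p = 0.0458 and 0.0183). CBX3, a heterochromatin protein that reads methylated histone H3, gave 23.0, 24.4 and 23.1 FPKM in UVB libraries, against 26.7, 26.8 and 28.0 FPKM in controls. Every UVB value was lower, with log2 fold change -0.20 (limma adjusted p = 0.0197). TRIM28 averaged 115 ± 4.01 FPKM after UVB and 105 ± 2.87 FPKM in controls (SD, n = 3 each) and SETDB1 differed by 0.17 on the log2 scale, with limma adjusted p of 0.0645 and 0.0772. The MORC2 call was lost with edgeR (adjusted p = 0.0668), and leaving out single libraries left 3 to 7 genes of the list higher and 0 to 2 lower. With edgeR 5 of the 30 were higher and 2 lower, where 13.3% of genes were called in each direction.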

How the data were processed

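The authors deposited FPKM values for 58735 genes and 771683 repeat copies, and read counts in 2 sheets. The count sheet used here held 74 repeat copies. Log2 fold changes, standard errors, test scores and p-values were also given, per the file headers. The authors' mean normalised count per feature, a signal averaged over libraries per the file headers, was not used in tests. Per the submitters' processing notes the tools were HISAT2 2.0.5, StringTie and DESeq on hg38 (GRCh38). The counter, its strand rule, the sharing of reads that match several copies and the origin of the repeat annotation are details not given in the sources used here. Reads of near-identical copies, and of a gene and a copy within it, cannot be told apart, so values of single copies are uncertain.

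Library totals followed from the deposited counts and FPKM, and 100% of the FPKM values above 0 converted to whole reads within a tolerance of 0.01. RPM is FPKM times length, summed over copies. limma 3.58.1 (eBayes with a mean trend, R 4.3.3) tested 499 repeat names with a mean of at least 1 RPM on log2(RPM + 0.1), and, on log2(FPKM + 1), 7745 copies and 14921 genes that averaged at least 0.5 FPKM, which understates changes of low features. Benjamini-Hochberg adjusted p under 0.05 was the threshold. Sums and ratios were tested with exact permutation in scipy 1.17.1. edgeR 4.0.16 (quasi-likelihood, TMM) and DESeq2 1.42.0 on recovered reads, other pseudocounts, filters and scalings, a replicate block and leaving out libraries were alternatives. Tests were also run on simulated counts with the same setting of spread for all features and no single-library departures. That check does not cover copies with such departures.

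Members, lists and rules were chosen with earlier results of these data known. The rules named the 5 LTR and 3 -int names of highest RPM, the 10 copies of highest RPM, all called copies, and up to 4 silencing genes per direction. Other copies were chosen after their values were seen. A comparison by position in genes was planned and not run, because no coordinates of the copies were used here. One marker gene of the leukocyte list is not reported here.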

Additional observations from a re-analysis of the deposited data

How the results depend on the processing

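Scaled to reads on repeats, the log2 difference of the sums turned positive, at 0.0185 for all MLT1 copies, 0.0185 for LTR and 0.0191 for -int copies. Leaving out single libraries gave -0.205 to -0.0360 for all copies, -0.207 to -0.0353 for LTR and -0.184 to -0.0460 for -int copies, and -0.0447 to 0.0322 for the LTR to -int ratio, which was 0.0016 without the most-read copy. Leaving out the 2 copies near 0 in control replicate 1 and restricting the ratio to insertions with both kinds were added after the data were seen. Both kept the direction. For the LTR to -int ratio this says little, since its log2 difference was -0.00060 and changed sign when single libraries were left out. Values of letter groups, THE1, MST and ratios without control replicate 2 were also added then.

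Among MLT1 names, DESeq2 called 1 higher, and leaving out single libraries gave 0 to 1 lower. With edgeR, DESeq2 and repeat scaling, the log2 fold change turned positive for MLT1D (0.0428, 0.0410 and 0.0162), MLT1J (0.0626, 0.0607 and 0.0351) and MLT1B-int (0.0911, 0.0902 and 0.0639). With edgeR and DESeq2 it did so for MLT1A0 (0.00227 and 0.000393) and MLT1B (0.0155 and 0.0135). Leaving out single libraries gave -0.0445 to 0.124 for MLT1C2, -0.155 to 0.00515 for MLT1B-int, -0.113 to 0.156 for MLT1C2-int and -0.0456 to 0.127 for MLT1A0-int. The cause was not tested.

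Among copies, edgeR called 1 lower, DESeq2 8 higher and 7 lower, and leaving out single libraries 2 to 3 higher and 1 to 2 lower. Leaving out single libraries changed the sign for MLT1D Repeat_1485233.228658 (-0.224 to 2.00), MLT1K Repeat_1545338.236823 (-0.212 to 0.0801) and MLT1G-int Repeat_604066.88803 (-0.109 to 0.0133, and 0.00137 with edgeR). Of the silencing genes, edgeR called 2 lower, and leaving out single libraries gave 3 to 7 higher and 0 to 2 lower.

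The labels do not say whether equal replicate numbers pair the libraries. Deviations of same-numbered libraries correlated at -0.12, 0.07 and -0.09 over repeat names, and at 0.048, 0.022 and 0.030 over genes. Those of differently numbered libraries ran from -0.049 to 0.14 over repeat names and from -0.033 to 0.0039 over genes. With a replicate block, 1 copy was lower, the MLT1D Repeat_448352.65636 no longer passing, and 4 silencing genes were higher and 0 lower by limma.

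Alternatives that need copies placed against exons were not run. For copies with few reads, depth limits what can be seen.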
